A study of Xenopus tropicalis with 26 samples.

Results

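The adult frog was compared with the tailbud embryo in Xenopus tropicalis, the western clawed frog, with 4 of the 26 libraries of the series. They were made by the method the labels call WTTS, which reads fragments of polyadenylated RNA and so counts transcripts mainly at their 3' ends. The adult side is one pool of whole-body RNA from 3 male and 3 female adult frogs, taken from trials 6 and 7 of 7 protocol trials. Trials 6 and 7 are technical libraries of that same pool, count as 1 biological sample, and may differ in protocol as well. The embryo side is stage 28, with a pool of whole embryos from each of 2 families. The labels give no genotype, strain, treatment or adult age for these samples. The comparison asks how much of the adult transcriptome is already on at tailbud, and which embryonic features are lost in adults.

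By the tailbud stage a Xenopus embryo has a neural tube, somites, eye rudiments and a forming heart, but most adult organs do not yet work. The adult body adds differentiated liver, gut, skin, muscle, blood, ovary and testis. Growing oocytes in the ovary store maternal transcripts, which the early embryo inherits and then degrades as its own genome is switched on. An RNA made in oocytes can therefore be present at cleavage, absent at tailbud and present again in an adult with ovaries.

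The 27836 features of the table carry identifiers of the XLOC form with a scaffold, start, end and strand. The files do not pair them with gene names, and 0 of them matched the 28858 genes of the reference table, which is on the assembly UCB_Xtro_10.0. Features are therefore given by identifier and position as the table has them, and no source used here gives the genome build. The labelled tissues, whole body and embryo, could not be checked against marker genes for the same reason. In whole animals, fewer cells of a type and less RNA per cell cannot be told apart.

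Trials 6 and 7 held 14918058 and 23922835 counts, and families 1 and 2 of stage 28 held 6272890 and 2549479. Levels are given as normalised CPM, counts scaled to the TMM-adjusted library size and set per 1e+06, unless stated otherwise. A feature is called on in a group at 5 CPM or more in both of its libraries, which is 68.9 and 110.7 counts in the trials and 27.6 and 16.5 counts in the families. It is called off at 1 CPM or less in both, which is 13.8 and 22.1 counts in the trials and 5.51 and 3.29 counts in the families. Over 18447 features the Spearman correlation was 0.967 between the trials and 0.948 between the families. Between a trial and a family it lay between 0.658 and 0.686, so the adult and the embryo stood much further apart than the libraries within either.

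Most of the adult transcriptome was already on at tailbud. Of 10559 features on in the adult pool, 8272, or 78.3%, were also on at stage 28, 1787 lay between the limits and 500, or 4.74%, were off. At a limit of 1 CPM in both families 92.4% were present. The share on was not particular to tailbud. By the limit of 5 CPM in both families, 79.1% of the 10559 were on at stage 6 and 78.9% at stage 8. At stages 11 and 15 the shares were 75.2% and 73.4%. The 8272 shared features took 83.1% and 83.2% of all counts in trials 6 and 7, and 91.9% and 91.1% in families 1 and 2. In the other direction, 82.2% of the 10068 features on at tailbud were on in the adult pool and 274, or 2.72%, were off. The share of adult features on at tailbud was 77.9% when all 4 libraries were thinned to 2549479 counts, and it moved to 69.9% with the limit for on at 10 CPM and to 84.9% at 2 CPM.

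**Figure D1:**
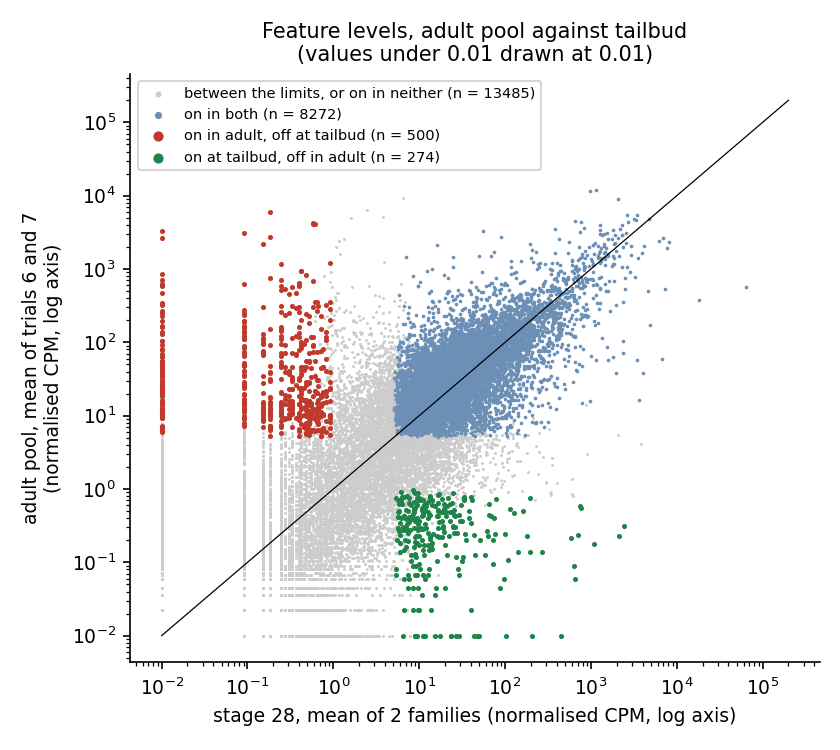
Mean normalised CPM of each feature with a count in the 4 libraries, stage 28 on the x axis and the adult pool on the y axis, both log axes, with values of 0 drawn at the edge and the diagonal marking equal levels. The 8272 features on in both lie around the diagonal, the 500 adult features off at tailbud lie at the left and the 274 tailbud features off in the adult pool lie at the bottom.

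The shared portion depended on the level of the feature, and it did so differently on the 2 sides. Among features on in the adult pool, 57.1% of the 1309 features at 5 to 10 CPM were on at tailbud, against 89.5% of the 1371 at 100 to 300 CPM. The share that was off at tailbud fell from 7.56% at 5 to 10 CPM to 2.87% at 30 to 100 CPM, and stood at 8.23% at 300 to 1000 CPM and 7.19% above 1000 CPM. Among features on at tailbud, the share off in the adult pool was 6.66% at 5 to 10 CPM and between 1.19% and 2.70% in each higher range. Of the 153 adult features above 1000 CPM 11 were off at tailbud, and of the 129 tailbud features above 1000 CPM 3 were off in the adult pool.

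**Figure D2:**
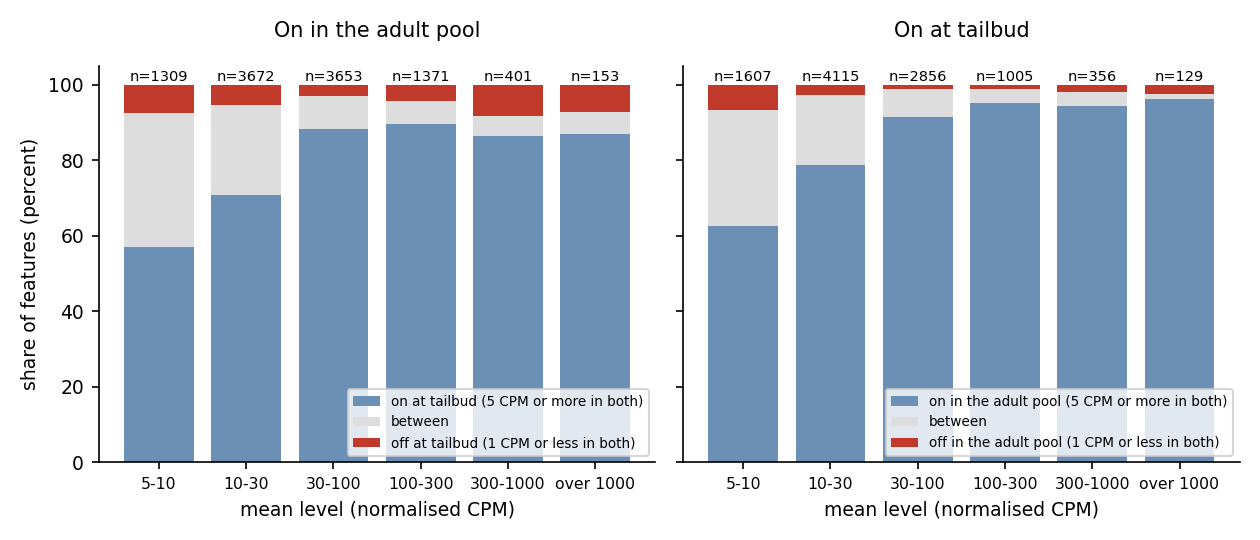
Share of features, in percent, that were on, between the limits or off in the other group, by mean level in normalised CPM, with the number of features above each bar. The left panel starts from features on in the adult pool and the right panel from features on at tailbud. The red share is larger on the left than on the right in every range, and most so above 300 CPM.

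At the very top of the ranking the adult pool and tailbud held different features. None of the 10 highest adult features was among the 10 highest at tailbud, while the trials shared 6 of their 10 highest and the families shared 6. Of the 100 highest, the adult pool and tailbud shared 49, the trials 85 and the families 72. Of the 1000 highest they shared 552, against 867 between trials and 807 between families. The 10 highest adult features lay between 4997 and 11973 CPM, and their tailbud ranks ran from 18 to 18691, with 5 of them among the 500 highest. The 10 highest tailbud features lay between 4761 and 63701 CPM, and their adult ranks ran from 11 to 3321, with 8 among the 500 highest. All 10 tailbud leaders were on in the adult pool, while only 5 of the 10 adult leaders were on at tailbud.

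The highest adult feature was XLOC_022604, on scaffold_750 from 702 to 13247, plus strand. It stood at 9311 and 14634 CPM in trials 6 and 7 and at 1521 and 788 CPM in families 1 and 2, a rank of 1 in the adult pool and 110 at tailbud. It was therefore already abundant in the embryo, 10.4-fold below the adult mean. The next, XLOC_023230, on scaffold_8 from 49427231 to 49434545, plus strand, had 8582 and 14379 CPM in the trials and 1348 and 590 CPM in the families. From stage 6 to stage 15 its 8 libraries lay between 0.225 and 5.18 CPM, so its high level was first seen at tailbud. The log2 change was 3.45 (SE 0.48, adjusted p = 0.000160) for XLOC_022604 and 3.65 (SE 0.49, adjusted p = 0.000116) for XLOC_023230 by edgeR's quasi-likelihood test.

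The highest tailbud feature was XLOC_016359, on scaffold_5 from 8636690 to 8661332, minus strand. It had 104409 CPM in family 1 and 22993 CPM in family 2, against 474 and 648 CPM in the trials. Its level differed widely between families but the trials were far lower than either, by -6.78 on the log2 scale (SE 1.74, adjusted p = 0.00833, edgeR), or -5.31 without family 1 and -7.49 without family 2. This feature alone took 9.18% of the counts of family 1 and 2.97% of family 2, and 232 and 473 features held 50% of the counts of these libraries, against 483 and 480 in trials 6 and 7. With XLOC_016359 left out the numbers were 320 and 517 in the families. Family 1 thus stayed more concentrated than the trials, while family 2 was close to the trials even with the feature in. Without that feature the 10 highest took 9.50% and 8.44% of the counts in the families, against 6.72% and 7.66% in the trials. The next, XLOC_004493, on scaffold_10 from 32831647 to 32878798, minus strand, had 23345 and 13202 CPM in the families and 342 and 412 CPM in the trials, a log2 change of -5.57 (SE 0.80, adjusted p = 0.000193, edgeR). Both were still on in the adult pool, at ranks 269 and 409.

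Across all features, 3783 were higher and 2533 lower in the adult pool than at stage 28, of 16238 tested with edgeR at an adjusted p below 0.05. That is 38.9% of the features tested, 23.3% higher and 15.6% lower. The pool of trials 6 and 7 entered as 1 library and was assumed to vary as the embryo families did, so these calls say nothing of differences between adult animals. The median log2 change was 2.58 among higher features, or 2.56 with the 168 at 0 counts at tailbud set at their bound, and -2.99 among lower features. At least 16-fold differences, with features at 0 counts at their bound, were met by 874 of the higher and 669 of the lower features. The trials and families did not overlap in 3780 of the 3783 and 2532 of the 2533, but this was also so for 43.8% of all features tested in the higher direction and 34.2% in the lower. The median log2 change over the whole set tested was 0.21, against -0.02 with DESeq2 size factors, and higher features made up 59.9% of the calls, 51.9% with those size factors and 47.0% with DESeq2. The balance was thus nearer to even with the other scaling, and turned to more lower calls with DESeq2, which changes the test as well as the scaling. Without family 2 of stage 28, 2491 features were called higher.

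Being on in both groups did not mean being at a like level. By the fitted change, 57.3% of the 8272 shared features lay within 2-fold and 13.8% differed by more than 4-fold. Within 2-fold of the median change of all features lay 58.8%. Between single libraries, 51.9% to 58.1% of these features lay within 2-fold in the pairings of a trial with a family. Between the trials this was 95.5% and between the families 89.1%. Of the shared features 1780, or 21.5%, were called higher in the adult pool and 738, or 8.92%, lower, against 23.3% and 15.6% of all features tested.

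The 500 adult features off at tailbud had a median of 20.9 CPM in the pool and reached 6030 CPM. Of them 401 had 10 CPM or more, 103 had 100 CPM or more, and 92 had 0 counts in both families. A feature with 0 counts is known only to lie below 0.341 CPM, which is 3 counts over both families after scaling. These 92 ranged from 6.05 to 3351 CPM in the pool. Together the 500 features took 6.59% and 6.80% of the counts of trials 6 and 7, and 498 of them were called higher in the adult pool. The limits that chose these features were set on the same values as the test, so this count is a description.

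These 500 features fell into groups with different histories before tailbud, in 8 libraries that did not enter the choice. Of them 191, or 38.2%, were off at stages 6 to 15 as well, against 2.78% of all features on in the adult pool. Another 109, or 21.8%, were on in all 4 libraries of stages 6 and 8, around the onset of transcription from the embryo's own genome. Among all features on in the adult pool that share was 76.9%. These 109 had a median of 30.6 and 30.4 CPM at stages 6 and 8, 7.85 CPM at stage 11, 2.13 CPM at stage 15, 0.363 CPM at stage 28 and 41.2 CPM in the adult pool. The limits that chose these 109 set their levels at stages 6, 8 and 28 and in the adult pool. Only stages 11 and 15 were free, and their medians lay between those of stages 8 and 28. The remaining features lay between these limits at one stage or another.

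The maternal feature with the largest difference was XLOC_027131, on scaffold_9 from 49355288 to 49357946, minus strand. It had 726 and 386 CPM in families 1 and 2 at stage 6, 516 and 343 at stage 8, 41.6 CPM in family 1 at stage 11 with 30 counts in family 2, and 1.41 and 1.43 CPM at stage 15. At stage 28 both families had 0 counts. In trials 6 and 7 it stood at 782 and 916 CPM, and in the 2 technical repeats of an adult female at 1226 and 692 CPM. The adult level was at least 2492-fold above the tailbud bound (adjusted p = 1.37e-06, edgeR). Both trials lay between the 2 adult female repeats and above all 4 libraries of stages 6 and 8.

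The feature with the largest difference among those off at stages 6 and 8 was XLOC_019244, on scaffold_6 from 91651189 to 91657178, minus strand. It had 3300 and 3402 CPM in the trials and 0 counts in both stage 28 families, at least 9834-fold above the bound (adjusted p = 4.91e-07, edgeR). In the 8 libraries of stages 6 to 15 it had at most 2 counts each. The adult female repeats held 1981 and 1167 CPM. It ranked 27 of all features in the adult pool and was silent, within counting error, through all embryo stages measured.

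The adult female, 1 frog sequenced in 2 technical repeats, and the RNA-seq library of the same pool served as further readings. Of the 109 maternal features 108 were on in both female repeats, with a median of 53.4 CPM. Of the 191 features off at every embryo stage 115, or 60.2%, were on in the female and 15 were off, with a median of 10.2 CPM against 23.6 in the pool. Among all features on in the adult pool 90.2% were on in the female. In adult RNA-seq, on a plain CPM scale, 429 of the 500, or 85.8%, stood at 5 CPM or more and 10, or 2.00%, at 1 CPM or less. Among all features on in the adult pool these shares were 96.0% and 0.331%.

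The 274 tailbud features off in the adult pool were the embryonic features lost in adults. Their median was 12.0 CPM at stage 28, lower than the 24.8 CPM of all features on at tailbud, and 22 had 100 CPM or more. They took 1.78% and 1.66% of the counts of families 1 and 2. No count fell on 19 of them in either trial, where the bound of 3 counts over both is 0.0835 CPM after scaling, and these 19 ranged from 6.45 to 449 CPM at stage 28. By edgeR 272 of the 274 were called lower in the adult pool, again a description of features chosen on these values. Their number rested on both trials, since 451 features met the limits with trial 6 alone and 378 with trial 7 alone. With the limit for on at 2 CPM it was 640.

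Almost none of the lost features was maternal by the limit for on. Only 2 of the 274, or 0.730%, were on in all 4 libraries of stages 6 and 8, against 72.8% of all features on at tailbud and 85.2% of those on in both groups. Of the 274, stages 6 and 8 were the first on stage for 6 and 2, stage 11 for 53, stage 15 for 87 and stage 28 for 126. By contrast 74.8% of all tailbud features were on at stage 6 and 9.26% came on first at stage 28. The embryo stage with the highest mean was 28 for 174 of the 274, or 63.5%, 15 for 85, 11 for 14 and 8 for 1. Among all features on at tailbud, 31.5% were highest at stage 28 and 17.5% at stage 15. Both sets were chosen as on at stage 28, which favours a highest mean there. The median of the 274 was 0.52 and 0.53 CPM at stages 6 and 8, then 2.06 CPM at stage 11 and 8.06 CPM at stage 15. Most lost features thus first reached 5 CPM at the gastrula, neurula and tailbud stages, which is not the same as being absent before.

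XLOC_025100, on scaffold_8239 from 153 to 2642, plus strand, showed the largest difference among lower features off at stages 6 and 8. It had at most 2 counts in each library of stages 6 to 11, 42.8 and 52.0 CPM at stage 15, and 503 and 395 CPM in families 1 and 2 at stage 28. Both trials had 0 counts, at least 5375-fold below the tailbud mean (adjusted p = 1.40e-06, edgeR). The adult female repeats had 0 counts and 1 count, and adult RNA-seq had 0.0136 CPM. It ranked 299 at tailbud and was at or near 0 in all adult libraries used here.

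Among lower features that were on at stages 6 and 8, the largest difference was at XLOC_004375, on scaffold_10 from 23152300 to 23168483, minus strand. Its maternal level was close to the limit, at 5.84 and 5.81 CPM at stage 6 and 8.78 and 11.9 CPM at stage 8. It then stood at 85.9 and 124 CPM at stage 11, 170 and 204 CPM at stage 15 and 221 and 266 CPM at stage 28. In the trials it was 1.31 and 1.90 CPM, a log2 change of -7.17 (SE 0.58, adjusted p = 1.90e-06, edgeR), and in the female repeats 0.817 and 0.644 CPM. The 2 trials lay just above the limit for off, so it is not one of the 274.

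**Figure D3:**
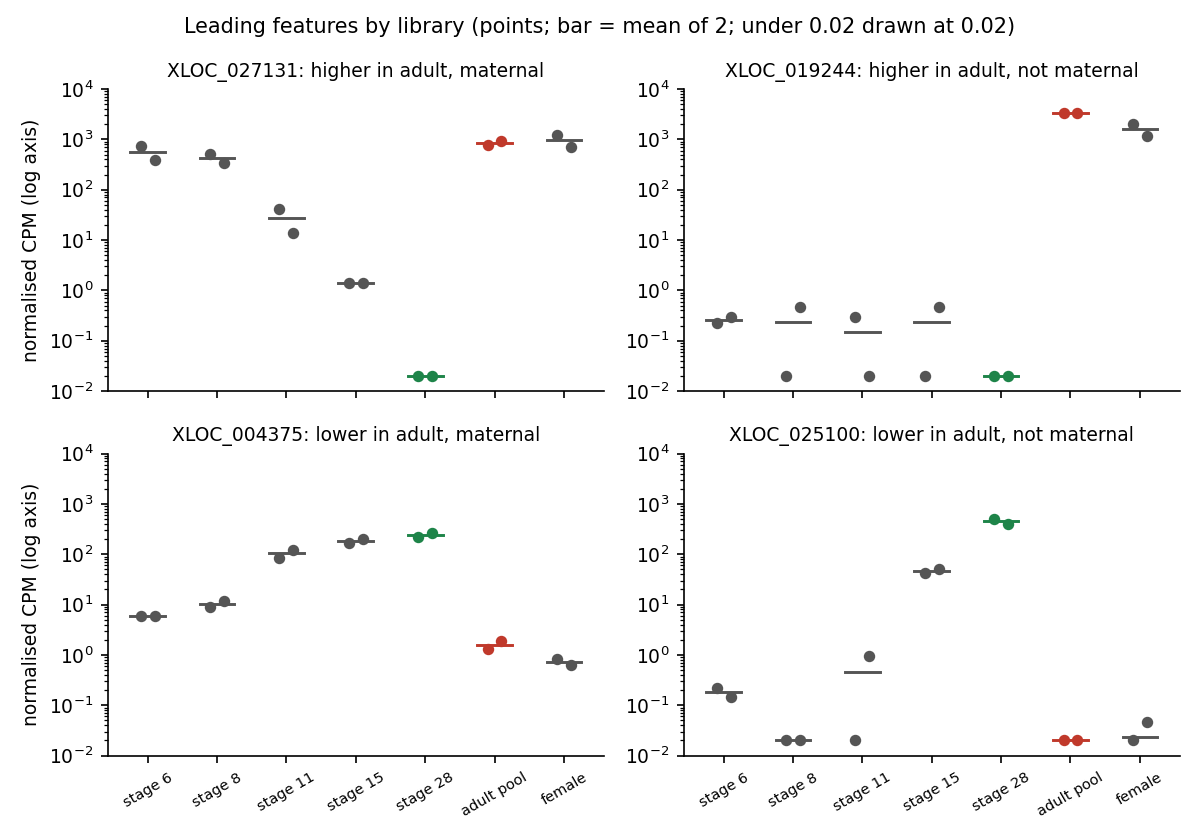
Normalised CPM, on log axes, of the 4 leading features in each library of the embryo stages, the adult pool and the adult female, with 2 libraries a group as points, their mean as a bar and 0 counts drawn near the bottom. XLOC_027131 declines from 726 and 386 CPM at stage 6 to 0 counts at stage 28 and stands at 782 and 916 CPM in the adult pool, whereas XLOC_025100 is seen at stages 15 and 28 and is at 0 counts in both adult trials.

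Adult libraries outside the choice gave the lost features low values as well. None of the 274 was on in both repeats of the adult female, and 217, or 79.2%, were off there, with a median of 0.32 CPM. Of all features on at tailbud 4.38% were off in the female. In RNA-seq of the same adult pool 170 of the 274 stood at 1 CPM or less and 16 at 5 CPM or more, where 86.1% of all tailbud features stood at 5 CPM or more. The rest of the 274 lay between these limits in RNA-seq. On its plain CPM scale, RNA-seq thus put 62.0% of the 274 at or below the limit for off. For the others the methods gave different readings of the same RNA, most clearly for the 16.

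The called features as a whole followed opposite courses through the embryo. The 3783 features higher in the adult pool had a median of 22.8 CPM at stage 6, then 21.6, 9.89, 6.42 and 5.48 CPM at the later stages in order, and 39.4 CPM in the adult pool. The 2533 lower features had medians of 1.84, 2.16, 6.79, 15.7 and 19.6 CPM at these stages and 2.02 CPM in the adult pool. The features were called on the adult pool and stage 28. The medians of those 2 groups, and the distance between them, are therefore a description. Among higher features 66.2% were on in all 4 libraries of stages 6 and 8, and among lower features 26.2%. This was so for 53.2% of all features tested, 76.9% of those on in the adult pool and 72.8% of those on at tailbud. In the pool 90.8% of the higher features were on, and against that set a smaller share was on at stages 6 and 8. In the adult female, which took no part in the choice, the medians were 38.7 CPM for the higher and 1.68 CPM for the lower features. Ovary RNA is part of a whole adult female body, and its part in these values was not tested.

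**Figure D4:**
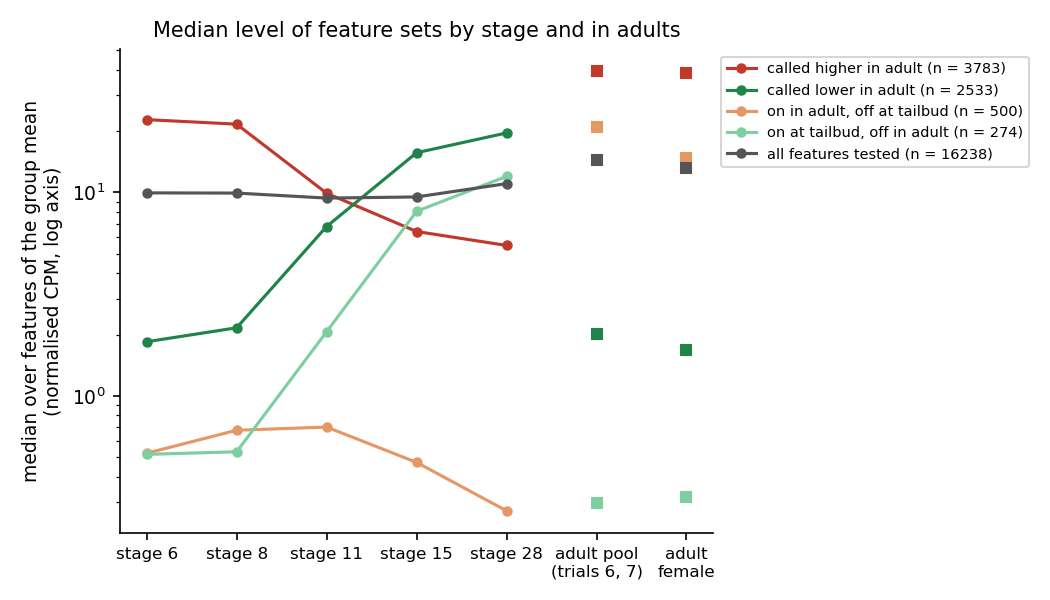
Median over features of the group mean, in normalised CPM on a log axis, for 5 sets of features at the 5 embryo stages (lines) and in the adult pool and the adult female (squares). Features higher in the adult pool go from 22.8 CPM at stage 6 to 5.48 at stage 28. Those lower in it go from 1.84 to 19.6 CPM. The median of all 16238 features tested stays between 9.37 and 11.0 CPM over the stages. The other sets were chosen on stage 28 and the adult pool, so their levels there follow from the choice.

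Long features were more often lower in the adult pool and short features more often higher. The span of a feature on the scaffold includes introns. Of 700 tested features spanning under 3 kb, 33.0% were higher and 20.9% lower, and of 1398 spanning over 100 kb, 5.44% were higher and 25.6% lower. The share called lower did not rise steadily with span. It was 14.7% from 3 to 10 kb, 12.9% from 10 to 30 kb and 16.0% from 30 to 100 kb. The median log2 change was 0.62 for spans under 3 kb, 0.67 from 3 to 10 kb and 0.51 from 10 to 30 kb. It was -0.09 from 30 to 100 kb and -0.80 for longer spans. With DESeq2 size factors the ends were 0.40 and -1.04, so the order of the shortest and longest features held under both scalings, while that of 30 to 100 kb turned from -0.09 to 0.06 with the libraries thinned. Over 100 kb the median level was 11.3 CPM in the adult pool, 8.44 CPM in the adult female and 21.4 CPM at tailbud, and 10.9, 12.6, 15.2 and 14.4 CPM at stages 6, 8, 11 and 15. In each pairing of a trial with a family between 23.2% and 31.9% of these long features were higher in the trial, against 56.0% to 62.0% of those under 3 kb.

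**Figure D5:**
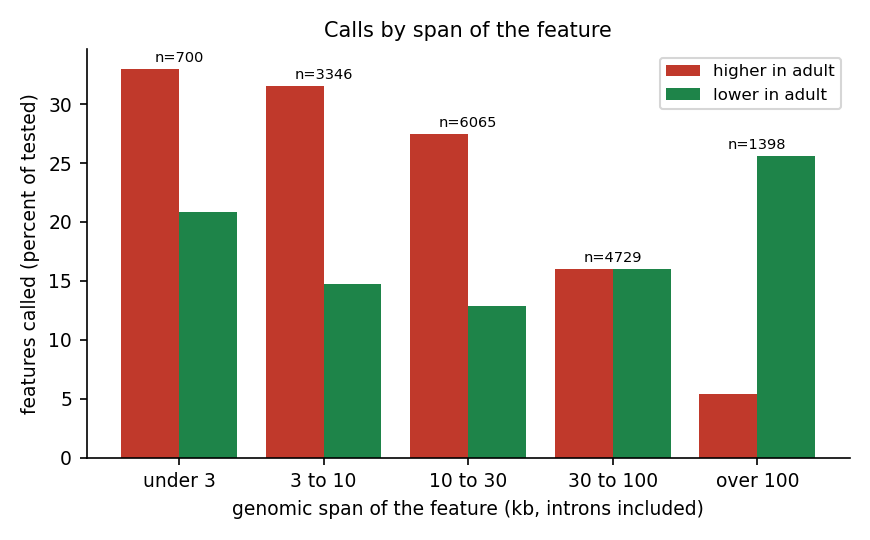
Percent of tested features called higher or lower in the adult pool than at stage 28 by edgeR, by genomic span in kb, with the number tested above the bars. The share called higher goes from 33.0% under 3 kb to 5.44% over 100 kb. The share called lower is 20.9% under 3 kb, 12.9% from 10 to 30 kb and 25.6% over 100 kb.

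On both sides the features off in 1 group had a shorter median span than all features on in the other. The median span was 8643 bp for the 500 adult features off at tailbud and 20785 bp for all features on in the adult pool. It was 13131 bp for the 274 lost features and 24491 bp for all features on at tailbud. Over all 27836 features of the table the median span was 10820 bp, so the 274 were not short by that measure. None of the 500 spanned over 100 kb, against 8.85% of adult features. Of the 274 lost features 0.730% did, against 11.6% of tailbud features and 14.1% of all features called lower. The lost features thus did not share the long spans seen among lower features. Overlap with a feature on the other strand, where counts of the partners are uncertain because the use of strand is not stated, was met by 13.6% of the 500 and 13.9% of the 274, against 23.4% of adult features and 23.5% of tailbud features. Of the 500, 20.4% lay on scaffolds other than scaffold_1 to scaffold_10, against 9.81% of adult features.

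Features off in one group often sat next to each other. Of the 500 adult features off at tailbud 96, or 19.2%, had a neighbour from the same set as the next feature on the scaffold, and 3.80% of all features on in the adult pool had such a neighbour. For the 274 lost features the shares were 10.6% and 2.10%. Features called higher had a called-higher neighbour in 33.0% of cases, close to the 29.2% of all features tested, and called-lower features had a called-lower one in 21.3%, against 18.7%. Neighbouring features can be parts of 1 gene or copies with like sequence, which the files do not tell.

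The longest unbroken series of adult features off at tailbud held 5 features, all on the plus strand of scaffold_9 from 97443315 to 97521535. Their means in the adult pool lay between 10.3 and 164 CPM, their means at tailbud between 0 and 0.152 CPM, and all 5 were off at stages 6 to 15. In the adult female their means ran from 2.25 to 76.6 CPM. The most abundant series was on the minus strand of scaffold_6 from 91651189 to 91726474, and held XLOC_019244 and the 2 features next to it. Trial 6 read 3300, 2712 and 487 CPM over the 3 features and trial 7 read 3402, 2629 and 646 CPM. At tailbud the first 2 had 0 counts in both families and the third 0.363 and 0.304 CPM.

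Among lost features the longest series held 3, on the plus strand of scaffold_6 from 245587 to 295859. Family 1 of stage 28 read 1377, 129 and 110.1 CPM over them and family 2 read 796, 78.4 and 66.2 CPM. At stage 15 they had 375, 61.6 and 36.2 CPM in family 1 and 429, 51.5 and 42.0 CPM in family 2. In the trials none of the 3 exceeded 0.218 CPM, and in the female none exceeded 0.276 CPM. All 3 had thus come on by stage 15 and stood near 0 in adults.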

How the data were processed

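The authors deposited 1 table of raw read counts for each feature. Per the labels' protocols, RNA was extracted with Trizol, and WTTS libraries were made by fragmentation, selection of polyadenylated RNA, cDNA synthesis, sizing and PCR. No source used here gives the aligner, counting program, genome build or strandedness. Intervals and floors cover counting error only.

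Counts of 11 libraries were fitted with edgeR 4.0.16 in R 4.3.3 (TMM scaling over 14 WTTS libraries, filterByExpr over the 4 libraries compared, quasi-likelihood F-test, Benjamini-Hochberg below 0.05): 10 embryo libraries, by stage, and trials 6 and 7 summed. The spread comes from the 2 families at 5 stages, and p-values measure the spread between these pools. SE values are the absolute log2 change over the square root of F. On simulated counts for this comparison (16238 features), 0 of 50 features changed by a log2 of 1 were recovered. The numbers were 17 of 50 at 2, 44 of 50 at 3 and 46 of 50 at 4, with 4 false calls. The changed features had a mean of at least 5 CPM, and all embryo stages were given the same mean. The adult library was drawn with the fitted embryo spread. The simulation therefore cannot tell whether the adult pool varies like the families. Trials 6 and 7 differed beyond sampling noise (chi-square per degree of freedom 59.5), as did the families (41.6).

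Families pair the embryo stages by their labels; deviations from stage means correlated between stages in all 10 pairs (0.109 to 0.413). Named features were the largest called, non-overlapping difference per direction among features on, or off, at stages 6 and 8, with mean log2 CPM over the 4 libraries from 3 up and no overlapping feature, plus the 2 highest levels per group. As no gene names could be matched, features are named by identifier and no gene lists were used. The neighbouring series were chosen after their values were seen. The comparison, sets and limits were chosen with earlier results of these data known. Alternatives were DESeq2 1.42.0 and its size factors, voom from limma 3.58.1, plain CPM, testing without the filter, a minimum log2 change of 1, other limits, thinning (1 seeded draw), the 4 libraries alone, family as a block and leaving out each library. Other steps used Python 3.11.15, pandas 2.3.3 and scipy 1.17.1.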

Additional observations from a re-analysis of the deposited data

How the results depend on the processing

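The total number of calls, 6316, stayed within 1.5 times under every alternative run, between 4383 without family 2 of stage 28 and 8286 with the 4 libraries alone. With family as a replicate block it was 7750, and the block ended the call of no named feature. The number called higher, 3783, was 1.5 times lower in 1 case: leaving out single libraries gave 2491 to 3929. Of the calls, 1965 higher and 1235 lower features were called in the same direction in all 11 alternative fits, and 3 called features changed sign in some fit. All 8 named features kept direction and call in 88 of 88 alternatives. They were picked for the largest changes or highest levels in these same libraries, so the choice favoured this outcome. The share of adult features on at tailbud, 78.3%, was 80.2% with DESeq2 size factors, 79.3% with plain CPM, 84.9% with on at 2 CPM, 69.9% at 10 CPM, and 76.6% to 82.9% without single libraries. Adult features off at tailbud, 500, numbered 786 at 2 CPM, 348 at 10 CPM, 419 with DESeq2 size factors and 566 to 668 without single libraries. Tailbud features off in the adult pool, 274, numbered 640 at 2 CPM, 131 at 10 CPM and 348 to 451 without single libraries. The causes were not tested. Among the 4 libraries 1 CPM was the fewest counts in family 2 of stage 28, at 3.29. With the 4 libraries thinned to equal depth the sets held 489 adult features and 287 tailbud features.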

Other observations

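Some adult features off at tailbud were also absent from the one adult female. Of the 500, 24 were off in both female repeats, while 44 of all 10559 features on in the adult pool were off there. Only 1 female was sequenced apart from the pool, and no library of a single male was used here.

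Lost features differed in how completely they were absent. The 23 of the 274 that were off at stages 6 to 15 and came on at tailbud had a median of 13.0 CPM at stage 28, all 23 were off in the female, and 20 stood at 1 CPM or less in adult RNA-seq. Their median span was 4126 bp. Of the 137 lost features off at stages 6 and 8, which include the 23, 93.4% were off in the female. In adult RNA-seq 78.8% of the 137 stood at 1 CPM or less. Among all 274 these shares were 79.2% and 62.0%.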
